A study of Mus musculus with 10 samples.

Results

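The killing machinery of cytotoxic lymphocytes was followed through 9 genes, those for granzymes A, B, C, D, E, F, G and K and for perforin, taken from the table of gene counts by their symbols. All 9 passed a filter on low counts, as did 15767 features in all, among them 14944 named genes. Each tumor is a piece of a WEHI 164 fibrosarcoma, a mouse connective tissue tumor line, grown under the skin of a female wild-type BALB/c mouse and resected before a hydrogel was laid on the tumor left behind, loaded with poly(I:C), a double-stranded RNA that activates Toll-like receptor 3. The 5 responders (mice 5, 9, 10, 11 and 12) later had complete regression, and the 5 non-responders (mice 1, 2, 3, 6 and 7) had no delay in growth. No tumor had met poly(I:C) when it was sampled, so the groups share strain, sex, genotype and the lack of treatment, and differ by label in the later outcome and in their numbers: mice 9 to 12 are all responders, and responder 5 is the only responder with a number among those of the non-responders. The labels give neither age nor sequencing batch. The groups describe 1 tumor line, and every piece comes from the resected part of its tumor. Libraries held 16002949 to 31160790 estimated counts in responders and 19863863 to 28276142 in non-responders.

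Cytotoxic lymphocytes, chiefly natural killer (NK) cells and CD8 T cells, store perforin and granzymes in secretory granules and release them onto a target cell. Perforin forms pores, and the granzymes, a family of serine proteases, then enter the target and cleave proteins there. Granzyme B is the best known inducer of caspase-driven death, granzyme A cuts after other residues and acts more slowly, and mice carry an additional set, granzymes C to G, encoded beside granzyme B.

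Responder 5 stood apart from the other responders in the levels of the members. Among the 10 tumors it ranked 1 to 3 from the bottom for every member, while responders 9, 10, 11 and 12 lay above every non-responder for all 9 genes. Its library of 25627675 estimated counts was within the range of the other responders. The members are therefore given with and without it, and the count without it follows for the lists of other genes. Without responder 5 the responders are exactly the tumors numbered 9 to 12, so outcome and position in the numbering cannot be told apart in those values.

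The mRNA of granzyme B, the caspase-activating protease, was measured at 30.6, 17.1, 23.6, 30.0 and 14.6 CPM (counts scaled to 1000000 per library after TMM normalization) in non-responders 1, 2, 3, 6 and 7. In responders 5, 9, 10, 11 and 12 Gzmb was at 19.3, 65.5, 69.1, 108 and 59.3 CPM. Responder 12, the lowest of the other responders, was well above non-responder 1, the highest of its group. Responder 5 was above non-responders 2 and 7 and below the rest, so the groups overlapped through that tumor alone. Responders averaged 64.2 ± 31.6 CPM and non-responders 23.2 ± 7.26 CPM (SD, n = 5 tumors per group). The log2 fold change of Gzmb was 1.48 with a standard error (SE) of 0.35, at an unadjusted p of 0.00101 and a Benjamini-Hochberg adjusted p of 0.580 in edgeR's quasi-likelihood test over all features. The difference in mean log2(CPM + 1) gave p = 0.0317 by an exact two-sided permutation test, of which the smallest possible p is 0.00794.

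Prf1, which encodes the pore-forming perforin, lies apart from the granzyme genes, at chr10:61297833-61304680 on the plus strand. Non-responders 1, 2, 3, 6 and 7 had 27.7, 12.4, 15.8, 19.3 and 8.92 CPM, and responders 5, 9, 10, 11 and 12 had 11.6, 42.4, 43.9, 66.8 and 44.2 CPM. Responder 5 again lay among the non-responders, below 4 of them, and responder 11 had the highest value. The log2 fold change of Prf1 was 1.32 (SE 0.38, unadjusted p = 0.00391, adjusted p = 0.580 by edgeR), the smallest of the 9.

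Gzma, for granzyme A, a protease that cuts after basic residues, lies at chr13:113093825-113100981 on the minus strand. It had 24.3, 5.46, 8.25, 31.3 and 11.03 CPM in non-responders 1, 2, 3, 6 and 7, and 8.04, 45.9, 58.9, 112 and 55.7 CPM in responders 5, 9, 10, 11 and 12. Gzma spread the most, with 20.5 times as much in responder 11 as in non-responder 2, against 7.40 to 12.2 times between the extreme tumors for the other 8 genes. Its log2 fold change of 1.82 was the largest of the members and had the largest error (SE 0.57, unadjusted p = 0.00715, adjusted p = 0.580 by edgeR).

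Gzmk, for granzyme K, which also cuts after basic residues, neighbors Gzma on chromosome 13, from 113171608 to 113225908, and was near the limit of detection. Its 5 to 77 counts per tumor came to 0.836, 0.286, 0.252, 0.767 and 0.313 CPM in non-responders 1, 2, 3, 6 and 7, and to 0.233, 1.69, 1.82, 2.50 and 1.11 CPM in responders 5, 9, 10, 11 and 12. The 4 responders above the rest were the same as for the other members, on far fewer reads. The log2 fold change of Gzmk was 1.59 (SE 0.52, unadjusted p = 0.00901). Esm1, a gene on the opposite strand, overlaps it, and the strandedness of the libraries is not stated.

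**Figure D1:**
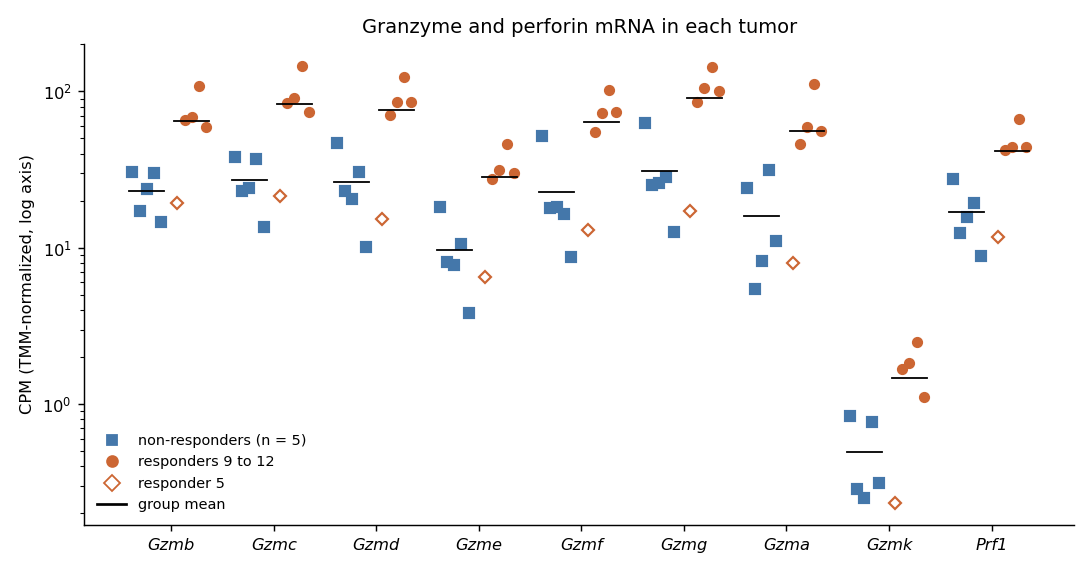
CPM on a log axis for each of the 9 genes in each tumor, with squares for the 5 non-responders, circles for responders 9 to 12, an open diamond for responder 5 and bars for the group means. In every gene the 4 circles sit above all squares, and the diamond sits among or below the squares.

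Granzymes C, D, E, F and G are encoded with granzyme B and Gzmn in a cluster of 7 coding genes on chromosome 14, from 56117626 to 56262260 on the minus strand of GRCm38, a span of 144635 bases. They are serine proteases found in strongly activated mouse lymphocytes, and what they cleave is less well known than for granzymes A and B. Gzmc (chr14:56231441-56234656) had 38.0, 23.2, 24.1, 36.7 and 13.5 CPM in non-responders 1, 2, 3, 6 and 7, and 21.4, 83.7, 91.1, 146 and 73.3 CPM in responders 5, 9, 10, 11 and 12. It followed Gzmb closely, with 1.49 to 2.18 times the per-length level of Gzmb in the 10 tumors. Its log2 fold change of 1.62 (SE 0.40, unadjusted p = 0.00131) had, with that of Gzmb, the smallest p among the members.

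Gzmg (chr14:56156582-56159579) had the highest mean CPM of the members, although its order against Gzmc could not be settled, at 62.8, 25.2, 26.1, 28.2 and 12.6 CPM in non-responders 1, 2, 3, 6 and 7, and 17.2, 85.1, 105.9, 144 and 100 CPM in responders 5, 9, 10, 11 and 12. Gzmf (chr14:56205263-56211417) had 52.0, 17.9, 18.2, 16.5 and 8.76 CPM in non-responders 1, 2, 3, 6 and 7, and 13.0, 54.9, 73.0, 103 and 73.5 CPM in responders 5, 9, 10, 11 and 12. In both genes non-responder 1 came closest to responder 9, at 62.8 against 85.1 CPM for Gzmg and 52.0 against 54.9 CPM for Gzmf. Gzmd and Gzme, at chr14:56129556-56132608 and chr14:56117626-56120625, ran in parallel, from 10.2 to 124 CPM for Gzmd and from 3.83 to 45.8 CPM for Gzme, each lowest in non-responder 7 and highest in responder 11. The log2 fold changes were 1.55 for Gzmg (SE 0.47), 1.49 for Gzmf (SE 0.49), 1.55 for Gzmd (SE 0.45) and 1.56 for Gzme (SE 0.44), with unadjusted p from 0.0036 for Gzme to 0.0101 for Gzmf.

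These paralogs are alike enough for reads to be shared. Of the 31-base words in their annotated transcripts, 42.1% of those of Gzme, 38.2% of Gzmd, 34.9% of Gzmf and 33.8% of Gzmg also occur in another gene, mostly in each other, against 14.8% for Gzmc, 1.35% for Gzmb, 0.392% for Prf1 and 0% for Gzma and Gzmk. The split of estimated counts among Gzmd, Gzme, Gzmf and Gzmg is therefore uncertain, and their sum does not depend on it, apart from reads shared with other genes. Summed over Gzmc to Gzmg before the fit, the tumors had 218, 97.4, 96.5, 122 and 48.8 CPM in non-responders 1, 2, 3, 6 and 7, and 73.5, 322, 387, 562 and 362 CPM in responders 5, 9, 10, 11 and 12. The log2 fold change of this sum was 1.55 (SE 0.45, unadjusted p = 0.00419, adjusted p = 0.583), the same size as for the single genes. Summed over Gzmd to Gzmg alone it was 1.53 (SE 0.47, adjusted p = 0.582).

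The stretch just before the start site shows how close the cluster genes are. Below are 121 bases upstream of each of Gzmc to Gzmg, 5′ to 3′ on the minus strand of chromosome 14, read from RefSeq promoters of the C57BL/6 reference (GRCm38.p6), while the mice were BALB/c. Capitals mark TGTGGT, the core of sites that RUNX factors bind, and ACGTCA on either strand, letters of the cyclic AMP response element, where the matches on the 2 strands overlap as TGACGTCA. The sequences are shown because these 5 genes share most of this window. Whether the window has a part in how their mRNA varied from tumor to tumor was not tested.
Gzmc: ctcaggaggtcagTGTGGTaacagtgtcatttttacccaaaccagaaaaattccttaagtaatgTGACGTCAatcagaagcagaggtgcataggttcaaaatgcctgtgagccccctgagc
Gzmd: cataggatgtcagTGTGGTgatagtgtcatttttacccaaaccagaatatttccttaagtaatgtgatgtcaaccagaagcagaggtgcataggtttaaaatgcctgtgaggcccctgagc
Gzme: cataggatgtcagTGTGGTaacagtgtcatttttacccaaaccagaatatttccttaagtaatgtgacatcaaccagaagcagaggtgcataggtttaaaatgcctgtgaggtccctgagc
Gzmf: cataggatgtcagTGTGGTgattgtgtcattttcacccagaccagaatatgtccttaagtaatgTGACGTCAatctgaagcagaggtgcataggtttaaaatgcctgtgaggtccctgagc
Gzmg: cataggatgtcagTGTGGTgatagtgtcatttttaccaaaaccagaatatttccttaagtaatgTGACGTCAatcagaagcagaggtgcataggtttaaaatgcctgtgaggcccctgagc
Positions are counted from 1 at the 5′ end of each line, and the lines are chr14:56234658-56234778, chr14:56132598-56132718, chr14:56120631-56120751, chr14:56211433-56211553 and chr14:56159600-56159720. The 5 lines have the same base at 102 of 121 positions, and any pair is identical at 87.6% to 97.5% of them. TGTGGT is in all 5 lines. Gzmc, Gzmf and Gzmg carry ACGTCA, which Gzmd lacks through C68T and Gzme through G69A relative to Gzmc. The log2 fold changes were 1.55 and 1.56 for Gzmd and Gzme (SE 0.45 and 0.44). They were 1.49 for Gzmf and 1.62 for Gzmc (SE 0.49 and 0.40). These errors are wider than the differences between the genes, and whether the letters play a part in the levels was not tested.

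Granzyme B, granzyme A and perforin, whose mRNA also varied with that of the cluster genes, have other upstream sequences, shown here for comparison. The 250 bases before the RefSeq start site follow, 5′ to 3′ on the strand of each gene, with capitals for TGTGGT and ACGTCA as above and for TGANTCA (AP-1) and TCACAC (the T-box core read by T-bet and Eomes), on either strand. They lie at chr14:56262335-56262584 on the minus strand, chr13:113100982-113101231 on the minus strand and chr10:61297586-61297835 on the plus strand.
Gzmb: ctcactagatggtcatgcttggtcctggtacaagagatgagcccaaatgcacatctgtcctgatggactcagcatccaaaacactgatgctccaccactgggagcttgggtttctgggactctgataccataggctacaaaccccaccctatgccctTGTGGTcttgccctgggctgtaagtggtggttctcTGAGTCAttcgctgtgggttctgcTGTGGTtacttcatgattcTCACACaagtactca
Gzma: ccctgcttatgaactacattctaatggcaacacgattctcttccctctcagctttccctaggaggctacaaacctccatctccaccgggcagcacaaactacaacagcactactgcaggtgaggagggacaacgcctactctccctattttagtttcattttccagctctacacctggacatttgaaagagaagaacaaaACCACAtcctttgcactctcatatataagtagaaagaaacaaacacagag
Prf1: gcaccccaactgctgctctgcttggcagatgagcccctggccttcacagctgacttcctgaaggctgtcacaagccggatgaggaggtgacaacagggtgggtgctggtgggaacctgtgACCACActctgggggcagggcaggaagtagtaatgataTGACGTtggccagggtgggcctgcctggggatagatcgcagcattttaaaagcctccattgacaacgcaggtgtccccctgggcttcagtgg
The RefSeq start of Gzmb lies 74 bases upstream of the GENCODE gene start, and those of Gzma and Prf1 lie 0 and 3 bases from it. In the whole 300-base windows, which reach 50 bases into the gene, TGTGGT was found in 8 of the 9 members, all but Gzmk, whose RefSeq and GENCODE starts lie 44943 bases apart so that its window holds for the RefSeq start only, and in 16.8% of all 32851 RefSeq promoters of that length. ACGTCA was found in Gzmb, Gzmc, Gzmf, Gzmg and Prf1 and in 7.51% of all promoters. TCACAC was found in Gzmb and Gzmk (14.5% of all promoters), TGANTCA in Gzmb (7.81%), the STAT letters TTCNNNGAA in Gzmb (8.3%), and GGAAA, the NFAT core, in Gzma, Gzmd, Gzme, Gzmf and Gzmg (61.3%). Because Gzmc to Gzmg are copies of each other, these are not 9 independent promoters, and a match of letters is not a bound site.

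As a group, all 9 members had an unadjusted p under 0.05 with the higher mean in responders, where 4.21% of all features did (8.21% in either direction). None of the 9 passed the adjusted threshold of 0.05 in edgeR's quasi-likelihood test, as for 0% of all features, and limma called 0 of the 9 as well. DESeq2 gave an adjusted p to 1400 features and to none of the members, whose unadjusted p by that tool were 0.000458 to 0.0111, so it could call none of them. All 9 had a log2 fold change above 1, as 0.45% of all features did (48.6% were above 0), with a median of 1.55 against -0.00359 over all features. The groups overlapped in all 9, whereas they did not in 0.926% of all features. The exact two-sided permutation test gave p under 0.05 for 3 members, Gzmb, Gzmc and Gzme, and p from 0.0556 to 0.0714 for the others, where 2.91% of all features had a p under 0.05 and the higher mean in responders. Most calls of this test rest on all tumors: the count was 0 without non-responder 2 or 7 or responder 9, 10, 11 or 12, 1 without non-responder 3, 2 without non-responder 6 and 7 without non-responder 1. The members vary together from tumor to tumor, so these are not 9 separate results.

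Without responder 5 the median log2 fold change of the members was 1.82 and their values ran from 1.57 for Prf1 to 2.10 for Gzma, all above 1 (0.675% of all features). All 9 again had an unadjusted p under 0.05 with the higher mean in responders, against 6.85% of all features. The adjusted p of edgeR was then 0.0302 for Gzmb and 0.0390 for Gzmc, 2 of the 9 genes called among all features (0.0573%), and 0.0677 to 0.0866 for the other 7 members. All 9 members then had groups that did not overlap, with every responder above every non-responder, against 2.11% of all features. The exact permutation p of the members ran from 0.00794 to 0.0159, under 0.05 for all 9 against 5.42% of all features. Responder 5 was left out because its values stood apart, so the comparison without it is a description of the other 9 tumors and not a second test.

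**Figure D2:**
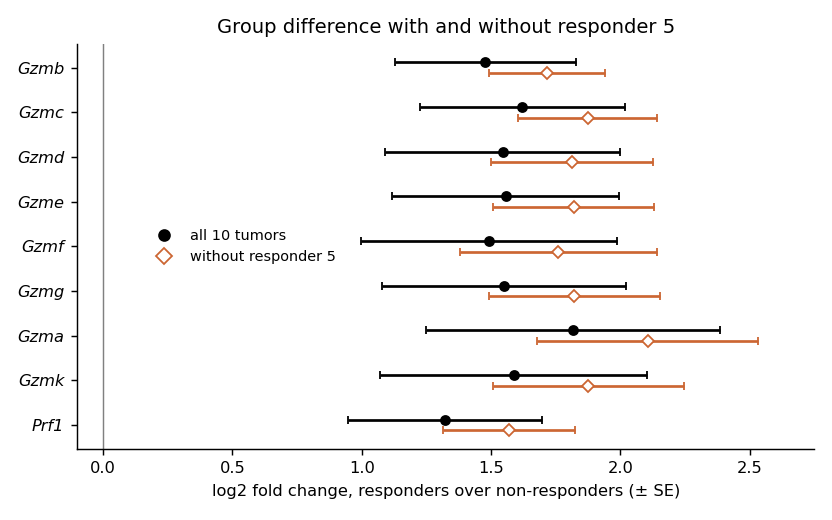
Log2 fold change of each gene, responders over non-responders, with its SE from edgeR, in all 10 tumors (filled circles) and without responder 5 (open diamonds). All 9 values lie between 1.32 and 1.82 with all tumors and between 1.57 and 2.10 without responder 5, and the error bars of the members overlap each other.

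On a per-length scale, CPM divided by the kilobases of the longest coding transcript, which allows levels of different genes to be compared, the order over the 10 tumors was Gzmg, Gzmc, Gzmd, Gzmf, Gzma, Gzmb, Gzme, Prf1 and Gzmk. Mean levels ran from 66.7 CPM per kb for Gzmg through 30.4 for Gzmb and 11.8 for Prf1 down to 0.753 for Gzmk. Gzmb stood above Gzme, Gzme above Prf1 and Prf1 above Gzmk in 10 of 10 tumors. Gzmg stood above Gzmc in 5 of 10 tumors, and Gzmf above Gzma and Gzma above Gzmb in 7 each. The mean log2 ratio of these pairs was smaller than its SD (0.06 ± 0.33, 0.54 ± 0.78 and -0.06 ± 0.65). Gzmd stood above Gzmf in 9 of 10 tumors (0.21 ± 0.26) and Gzmc above Gzmd in 8 (0.25 ± 0.25), differences of about the size of the spread between tumors. The first 3 of these pairs could not be ordered, and the other 2 kept 1 order in most tumors. Gzmc to Gzmg, whose order among themselves is limited by the shared reads, were together the bulk of the granzyme mRNA.

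Those 5 granzymes made up 78.7 ± 1.43% of the summed per-length granzyme level in responders and 78.6 ± 6.79% in non-responders (SD, n = 5 each). The share was 83.6%, 85.7%, 80.8%, 71.6% and 71.2% in non-responders 1, 2, 3, 6 and 7, and 78.7%, 79.0%, 79.5%, 76.3% and 80.0% in responders 5, 9, 10, 11 and 12. Group means differed by far less than the spread between tumors, and responder 5, low in every member, had a share of Gzmc to Gzmg within the range of the other responders. Shares of single granzymes in responder 5 lay outside those of the other responders for all but Gzmf and Gzmk, with for example 7.93% Gzma against 10.4% to 14%, 13.2% Gzmb against 8.4% to 10.3%, 23.6% Gzmc against 16.7% to 21.1% and 18.6% Gzmg against 19.7% to 22.4%. Gzmb had 10.1 ± 1.86% and 10.9 ± 2.41%, and Gzma 11 ± 2.19% and 10.2 ± 5.40%, in responders and non-responders. Gzma relative to Gzmb ranged from 0.46 in non-responder 2 to 1.51 in non-responder 6, and in responders from 0.602 in responder 5 to 1.49 in responder 11. Gzmf relative to Gzmb ranged from 0.861 in non-responder 6 to 2.66 in non-responder 1, and in responders from 1.06 to 1.94. Whether the spread differs between the groups was not tested. Perforin per length was 0.351 to 0.525 of Gzmb in all 10 tumors.

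**Figure D3:**
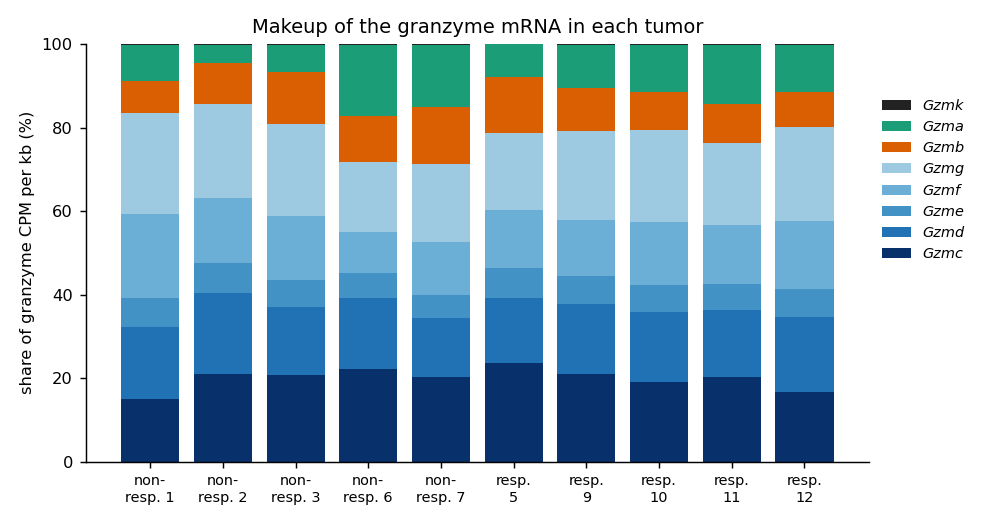
Share of each granzyme in the summed CPM per kb of the 8 granzymes, in percent, stacked for each tumor, with Gzmc to Gzmg in shades of blue. The blue part is 71.2% to 85.7% of the total in non-responders and 76.3% to 80.0% in responders, and Gzmk at the top is barely visible.

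Granzyme M, the remaining member of the family with a measurable level, had near equal means in the groups. Gzmm, which cuts after methionine and similar residues, had 1.14, 0.571, 0.855, 0.857 and 1.21 CPM in non-responders 1, 2, 3, 6 and 7, and 1.16, 0.625, 1.04, 1.07 and 0.92 CPM in responders 5, 9, 10, 11 and 12. The highest value was in non-responder 7, the tumor with the least Gzmb, and the ranges coincided. Its log2 fold change was 0.08 (SE 0.24, adjusted p = 0.956 by edgeR), from 10 to 33 counts. Gzmn, in the chromosome 14 cluster, had at most 10 counts and did not pass the filter.

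Across the 10 tumors the members varied in step. Pearson's r of log2(CPM + 1) ran from 0.859 to 0.998 over the 36 pairs of members, with a median of 0.965. For perforin and granzyme B, r was 0.984 and Spearman's rho 0.952 (permutation p = 1e-05, the smallest that 100000 resamples can give, and p = 0.00012), and r was 0.975 once responder 11 and non-responder 7, at the ends of the Prf1 range, were left out. After the mean of its group was subtracted from each value r was 0.978, so the relation held within the groups. For granzyme A it was 0.944 with Gzmb (rho 0.903, permutation p = 0.00014 and 0.00081) and 0.933 with Prf1 (rho 0.891, permutation p = 0.00033 and 0.00122), and 0.918 and 0.892 within the groups. These are among 12 relations computed, and the Benjamini-Hochberg adjusted p of the 3 was 0.00012, 0.000336 and 0.00066 for r.

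The features most like each of the 3 main effectors, by Pearson's r over the 10 tumors among 13065 named features with a mean of at least 1 CPM, are given as a description. For Gzmb they were Gzmc (0.992), Prf1 (0.984), Ltb4r1 (0.972), a leukotriene B4 receptor gene, Gzme (0.969) and Emb (0.969), which encodes embigin. For Prf1 they were Gzme (0.993), Gzmd (0.989), Gzmg (0.988), Gzmc (0.985) and Emb (0.985). For Gzma the first was Ncr1 (0.985), which encodes the activating NK cell receptor NKp46, followed by Sod2 (0.975), Clnk (0.974), Skap1 (0.970) and Lax1 (0.970), and Gzmb ranked 26. Sod2 encodes mitochondrial superoxide dismutase, and Clnk, Skap1 and Lax1 encode adaptors of immune receptor signaling.

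The levels of lymphocyte markers were compared with those of the effectors, since in bulk tissue fewer cells of a type and less RNA per cell cannot be told apart. Of 8 NK cell markers 6 passed the filter, 4 of them with an unadjusted p under 0.05 and the higher mean in responders (background 4.21%), and the median log2 fold change was 0.58. Without responder 5 all 6 had such a p, at a median of 0.76 (background 6.85%). Ncr1 averaged 5.39 ± 2.39 CPM among responders against 2.95 ± 1.13 CPM among non-responders, a log2 fold change of 0.88 (SE 0.35, adjusted p = 0.587), and Klrb1c, the NK1.1 gene, 0.89 (SE 0.32, adjusted p = 0.580). Summed over the list, NK markers had 24.02, 12.7, 19.7, 22.2 and 17.01 CPM in non-responders 1, 2, 3, 6 and 7, and 15.9, 29.2, 30.1, 35.8 and 27.4 CPM in responders 5, 9, 10, 11 and 12. The 4 high responders were thus the same as for the granzymes. The most abundant of these markers was Klrk1, at 9.67 CPM, Klra4 had at most 4 counts, and Klra8 was at 0 in all tumors.

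Of the T cell markers all 8 passed the filter, none had an unadjusted p under 0.05 (background 8.21% in either direction), and the median log2 fold change was 0.28. The count was different without responder 5: 4 of the 8 then had an unadjusted p under 0.05 with the higher mean in responders (background 6.85%), at a median of 0.49. These were Cd3g (0.74), Cd5 (0.72), Cd6 (0.70) and Cd3e (0.55), with edgeR adjusted p of 0.103 to 0.261. Their sum was 26.7, 13.9, 18.3, 21.97 and 18.7 CPM in non-responders 1, 2, 3, 6 and 7, and 11.2, 28.4, 28.3, 33.8 and 23.3 CPM in responders 5, 9, 10, 11 and 12, lowest in responder 5. Cd3g, a subunit of the T cell receptor complex, was the most abundant at 4.90 CPM, and none of the 8 was at 0. Of the CD8 genes, Cd8a had a log2 fold change of 0.13 (SE 0.27) and Cd8b1 of 0.44 (SE 0.37), and their sum was 3.39 to 10.3 CPM in non-responders and 3.88 to 9.23 CPM in responders, with non-responder 1 the highest of all. Without responder 5 the values were 0.27 for Cd8a and 0.68 for Cd8b1 (SE 0.26 and 0.30), and Cd8b1 had an unadjusted p of 0.0434.

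Over the 10 tumors the mean log2(CPM + 1) of the 6 NK markers went with Gzmb at r = 0.955 (rho 0.964), with Gzma at r = 0.963 (rho 0.964) and with Prf1 at r = 0.956 (rho 0.915), by permutation p of 3e-05, 5e-05 and 7e-05 for r and 4e-05, 6e-05 and 0.00058 for rho. Once non-responder 2 and responder 5, whose marker levels were most distant from the median, were left out, r was 0.978, 0.938 and 0.980. For the T cell markers r was 0.834, 0.875 and 0.860 with Gzmb, Gzma and Prf1 (rho 0.927, 0.891 and 0.879, permutation p for r of 0.00264, 0.00068 and 0.00139 and for rho of 0.00023, 0.00113 and 0.00175). For the CD8 markers r was 0.772, 0.780 and 0.834 (rho 0.830, 0.758 and 0.782, permutation p for r of 0.0111, 0.0101 and 0.00348 and for rho of 0.00451, 0.0142 and 0.0105). Within the groups r with Gzmb, Gzma and Prf1 was 0.949, 0.944 and 0.935 for the NK markers, 0.934, 0.919 and 0.922 for the T cell markers and 0.863, 0.808 and 0.902 for the CD8 markers. Responder 5, the lowest of the responders in all of these markers' means, is kept in these values, and they are not given without it. Without non-responder 2 and responder 5, r for the T cell markers was 0.887, 0.857 and 0.907 and for the CD8 markers 0.684, 0.588 and 0.785. Without responder 5 alone r for the CD8 markers was 0.746, 0.740 and 0.806 (permutation p = 0.0204, 0.0229 and 0.0077). The adjusted p over the 12 relations was at most 0.0111 for r with all tumors, and at most 0.00437 within the groups. Over the 8 tumors without those 2 it was 0.0625 for the CD8 markers with Gzmb and 0.123 with Gzma, past the threshold. Whether NK and T cell markers correlate with an effector to a different degree was not tested.

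**Figure D4:**
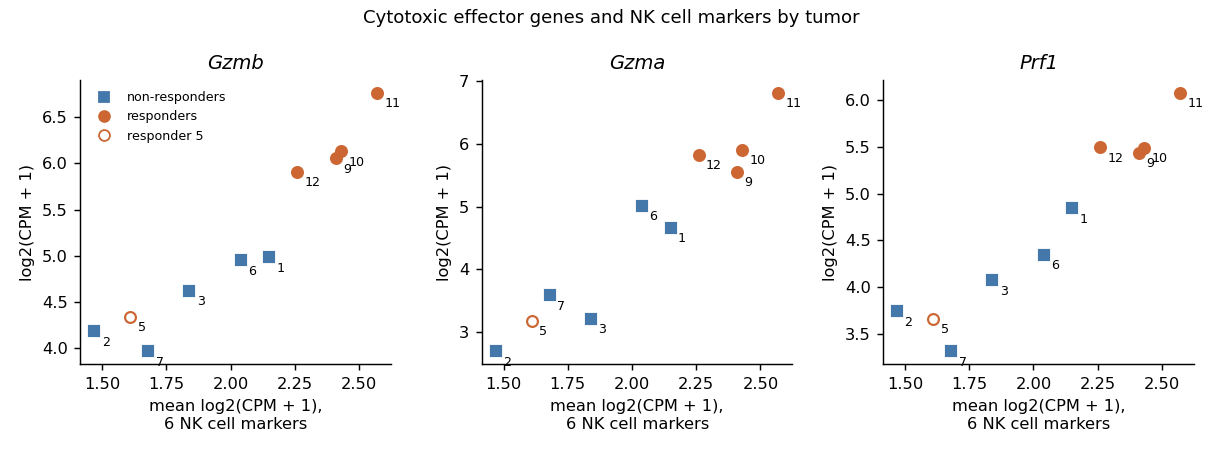
Log2(CPM + 1) of Gzmb, Gzma and Prf1 in each tumor against the mean log2(CPM + 1) of 6 NK cell markers, with squares for non-responders, circles for responders and an open circle for responder 5. The points rise together in each panel (r = 0.955, 0.963 and 0.956), with responder 5 near non-responders 2 and 7 and responders 9 to 12 at the upper right.

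Gzmb, Gzma and Prf1 differed between the group means by more than the NK and T cell markers did. For Gzma against the NK markers the threshold was not passed, and the CD8 markers were not compared in this way. Gzmb minus the mean of the NK markers, on the log2(CPM + 1) scale, was 2.83, 2.71, 2.78, 2.91 and 2.28 in non-responders 1, 2, 3, 6 and 7, and 2.73, 3.64, 3.70, 4.20 and 3.65 in responders 5, 9, 10, 11 and 12. Only responder 5 of the responders lay inside the range of the non-responders. The difference between group means was 0.88 (exact two-sided permutation p = 0.0317, adjusted p = 0.0476 over 6 such comparisons). Against the T cell markers it was 1.13 for Gzmb (exact permutation p = 0.0159), 1.45 for Gzma (p = 0.0397) and 1.0 for Prf1 (p = 0.0238), each with an adjusted p of 0.0476. Against the NK markers it was 0.75 for Prf1 (exact permutation p = 0.0397, adjusted p = 0.0476) and 1.2 for Gzma (p = 0.0635, adjusted p = 0.0635). Judged by the unadjusted p, leaving out 1 tumor ended the call of Gzma against the T cell markers in 7 of 10 cases. It ended that of Prf1 against the NK markers in 8 of 10, with exact permutation p of 0.0635 to 0.0794 in these cases. With 1 tumor left out, the unadjusted exact permutation p was at most 0.0397 and 0.0238 for Gzmb against the NK and T cell markers. For Prf1 against the T cell markers it was at most 0.0476. The adjusted p was computed with all tumors only, so no adjusted call is shown to hold with a tumor left out. Without responder 5 the 6 differences were 0.985 to 1.85, with exact permutation p of 0.00794 to 0.0159. With a pseudocount of 0.5 in place of 1 the differences to the NK markers were 0.84 for Gzmb, 1.18 for Gzma and 0.71 for Prf1, and those to the T cell markers 1.13, 1.47 and 1.01.

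Mast cells and basophils, which store other serine proteases in their granules, were also present in these tumors. All 10 of their markers passed the filter and none was at 0. Of these 5 had an unadjusted p under 0.05 with the higher mean in responders (background 4.21%), and the median log2 fold change was 0.41 (5 and 0.47 without responder 5, background 6.85%). The smallest p were those of the chymase gene Mcpt4 (0.60, unadjusted p = 0.011), Fcer1a, for the IgE receptor (0.55, unadjusted p = 0.0123), and the chymase gene Cma1 (0.46, unadjusted p = 0.0251). Their summed level was 544, 315, 399, 305 and 307 CPM in non-responders 1, 2, 3, 6 and 7, and 421, 380, 465, 667 and 549 CPM in responders 5, 9, 10, 11 and 12, with the tryptase gene Tpsab1 the most abundant at 169.6 CPM. The order of the tumors was not that of the granzymes: non-responder 1 was above responders 5, 9 and 10, and responder 5 was above 4 non-responders. Their part in the granzyme levels was not tested. Markers of macrophages (6 of 6 past the filter, none with an unadjusted p under 0.05, median log2 fold change 0.14) and the leukocyte gene Ptprc (0.19, SE 0.10, adjusted p = 0.653) had these values with all tumors. Without responder 5, 2 macrophage markers, Csf1r (0.18) and Cd68 (0.26), and Ptprc (0.26) had an unadjusted p under 0.05 (background 6.85%). For the labelled tumor type, all 7 fibroblast genes passed the filter, with Vim the most abundant at 4761 CPM.

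Other granule genes were compared from lists of the pathway. Of 8 further granule components 7 passed the filter and 2 had an unadjusted p under 0.05, both with the higher mean in responders (background 4.21%), at a median log2 fold change of 0.08. These were Nkg7, a granule membrane protein needed for degranulation, with 8.75 ± 4.05 and 4.23 ± 1.47 CPM in responders and non-responders and a log2 fold change of 1.06 (SE 0.35, adjusted p = 0.580), and Ctsw, a cathepsin of cytotoxic cells, with 0.63 (SE 0.26, adjusted p = 0.591). Nkg7 was at 2.83 CPM in responder 5 and at 8.05 to 14.2 CPM in the other responders, against 1.96 to 5.81 CPM in non-responders. Srgn, the proteoglycan on which granzymes are packed, had 0.44 (SE 0.25, adjusted p = 0.669). Lamp1, Cd63 and Calr, found in granules and elsewhere, had 0.04 to 0.07. With responder 5 left out the count was 4 of 7 (background 6.85%), with Srgn at 0.61 and Cd63 at 0.10 added, and the median 0.11.

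The proteases that activate the effectors were abundant in both groups. Ctsc, for cathepsin C, which removes the inhibitory dipeptide of granzymes, had 419 ± 62.4 and 337 ± 52.9 CPM in responders and non-responders, a log2 fold change of 0.31 (SE 0.12, unadjusted p = 0.0183, adjusted p = 0.580). Ctsh and Ctsl had 0.13 each, with unadjusted p of 0.156 and 0.143. For transport and release of granules, 10 of 11 genes were found by name in the table (Vamp7 was not), and all 10 passed the filter. Of these 1, Lyst, had an unadjusted p under 0.05, a count near the 8.21% of all features in either direction. The log2 fold change of Lyst was 0.26 (SE 0.07, adjusted p = 0.580). Unc13d and Rab27a, which dock and prime granules, had 0.23 (SE 0.15) and 0.22 (SE 0.15), and Stx11, a fusion protein, 0.17 (SE 0.09). Without responder 5 all 3 proteases (0.19 to 0.36) and Stx11 (0.21) beside Lyst (0.30) had an unadjusted p under 0.05 (background 6.85% with the higher mean in responders). With all tumors these differences of the shared machinery were smaller than the 1.32 to 1.82 of the effectors. They are values of all cells of a piece together, and the levels in the lymphocytes alone cannot be told from bulk tissue.

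Of the genes for what granzymes meet in the target, the 14 substrates and uptake genes had a median log2 fold change of 0.02 and a range of -0.15 to 0.11. Bid, which granzyme B cleaves, had 0.04 (SE 0.05). Lmnb1, for lamin B1, with -0.15 (SE 0.07, unadjusted p = 0.0398, adjusted p = 0.591), was the only gene of this list with an unadjusted p under 0.05 (background 8.21% in either direction), and it had the lower mean in responders. Without responder 5 it no longer had such a p (0.104), and M6pr, for a mannose 6-phosphate receptor, did, at 0.14. The 4 intracellular inhibitors all had a higher mean in responders, 2 of them with an unadjusted p under 0.05 (background 4.21%). Serpinb9, which blocks granzyme B, was at 31.4, 24.3, 32.9, 30.8 and 29.8 CPM in non-responders 1, 2, 3, 6 and 7, and at 33.2, 40.5, 38.7, 40.5 and 36.8 CPM in responders 5, 9, 10, 11 and 12. Every responder, responder 5 included, was above every non-responder, although the gap between responder 5 and non-responder 3 was 33.2 against 32.9 CPM. The groups did not overlap, in either direction, in 0.926% of all features. The log2 fold change of Serpinb9 was 0.35 (SE 0.08, unadjusted p = 0.00105, adjusted p = 0.580), and that of Serpinb6b, a related serpin, 0.29 (SE 0.13, adjusted p = 0.595). Serpinb9b had 0.54 at an unadjusted p of 0.0802. Without responder 5, 3 of the 4 inhibitors had an unadjusted p under 0.05 (background 6.85%).

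The other arm of killing, through death receptors, had 6 genes past the filter, 3 with an unadjusted p under 0.05 and the higher mean in responders (background 4.21%). Fasl, for Fas ligand, had 2.09 ± 0.911 and 1.18 ± 0.281 CPM in responders and non-responders, a log2 fold change of 0.83 (SE 0.32, adjusted p = 0.587), from 19 to 94 counts. Its receptor Fas had 0.61 (SE 0.22, adjusted p = 0.580), and Tnfsf10, for the ligand TRAIL, 0.35 (SE 0.15, adjusted p = 0.591). Fadd, Tnfrsf10b and Casp8, the adaptor, a receptor and the initiator caspase, had -0.03 to 0.00. When responder 5 was left out the count was 2, Fasl (1.05) and Fas (0.73), against a background of 6.85%.

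Among the transcription factors of cytotoxic lymphocytes, 12 of 13 were found by name in the table (Zfp683 was not), and all 12 passed the filter. Of these 4 had an unadjusted p under 0.05, all with the higher mean in responders (background 4.21%). Eomes, which activates granule genes in NK and CD8 T cells, had 3.65 ± 1.34 and 1.86 ± 0.582 CPM, a log2 fold change of 0.98 (SE 0.29, adjusted p = 0.580). Stat4, which relays interleukin-12, had 0.61 (SE 0.22), Id2 0.42 (SE 0.18) and Runx3 0.28 (SE 0.11), with adjusted p of 0.580, 0.591 and 0.583. Tbx21, for T-bet, had 0.45 (SE 0.40, adjusted p = 0.788). Eomes was thus nearer to the granzymes in size than the other factors, but still below each of the 9 members. Leaving out responder 5 gave 5, with Ikzf3 (0.68) added (background 6.85%).

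Of 17 cytokine and receptor genes that induce granule genes 14 passed the filter, and 8 had an unadjusted p under 0.05 with the higher mean in responders (background 4.21%). The chains of the interleukin-2 receptor had log2 fold changes of 0.91 for Il2rb (SE 0.30, adjusted p = 0.580), 0.82 for Il2ra (SE 0.26, adjusted p = 0.580) and 0.35 for Il2rg (SE 0.14, adjusted p = 0.591). Il2rb, shared by interleukin-2 and interleukin-15, was at 33.8, 16.1, 20.1, 24.4 and 18.4 CPM in non-responders 1, 2, 3, 6 and 7, and at 15.5, 41.1, 46.8, 67.1 and 40.4 CPM in responders 5, 9, 10, 11 and 12, the same split as for the granzymes. Without responder 5, 2.11% of all features had every responder above every non-responder. Il12rb2, a chain of the interleukin-12 receptor, had 0.93 (SE 0.31), and Ifng, for interferon gamma, 0.86 (SE 0.30), both with an adjusted p of 0.580. Il12rb1, Il15ra and Il18rap had 0.23 to 0.36. The cytokines Il2, Il12a and Il21 had at most 11 counts in a tumor and did not pass the filter, and Il15 had 0.16 (SE 0.16, adjusted p = 0.816). Leaving out responder 5 gave 10 of 14 (background 6.85%), at a median of 0.42 against 0.35 with all tumors. No gene of these lists had an adjusted p under 0.05, with or without responder 5, apart from Gzmb and Gzmc without it.

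**Figure D5:**
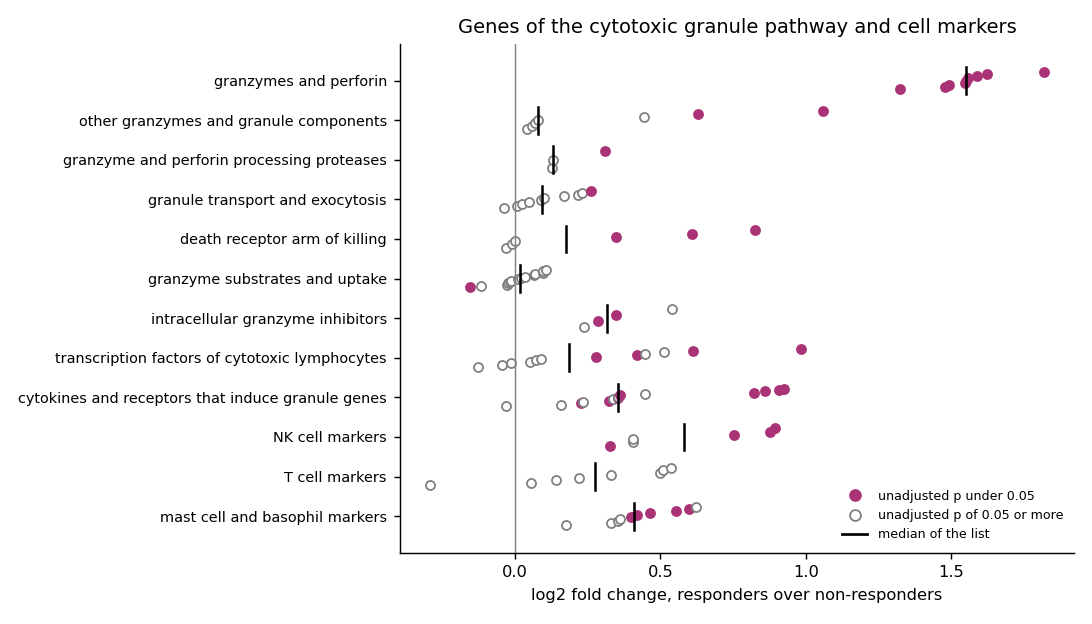
Log2 fold change, responders over non-responders, of each gene past the filter in 12 lists, filled where the unadjusted p of edgeR was under 0.05, with a bar at the median of each list. The 9 granzyme and perforin genes lie between 1.32 and 1.82, and the gene nearest to them is Nkg7 at 1.06.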

How the data were processed

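Poly(A) RNA of 10 tumor pieces was sequenced as 150-base pairs. Per the labels, Kallisto and GRCm38 were used, and the authors deposited estimated counts per gene, summed with tximport, without normalization. The annotation release is not given in the sources used here. Of 36009 rows 9580 carry no name and were kept, rows of 1 symbol were summed, and counts were rounded. Features with a CPM above about 0.37 in at least 3 tumors were tested with edgeR 4.0.16 (TMM normalization, quasi-likelihood, Benjamini-Hochberg, threshold 0.05) in R 4.3.3, which was tested on simulated data. Every tumor came from its own mouse. The common biological coefficient of variation that edgeR estimated over all features was 10.4%. The members varied more: their SD was 47% to 66% of the mean CPM in responders and 31% to 74% in non-responders. Exact permutation tests of log2(CPM + 1) and the figures used Python 3.11.15 with scipy 1.17.1 and matplotlib 3.10.9. DESeq2 1.42.0, limma 3.58.1, other normalizations, filters and pseudocounts, and leaving out each tumor were the alternatives. Depth leaves wide errors for genes under 100 counts. Coordinates and transcript lengths are from GENCODE M21 on GRCm38, and promoters from RefSeq.

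The members and the gene lists, written from general knowledge, were chosen with earlier results of these data known. The genes named were all members, in each list up to 3 with the smallest p in each direction, and the 5 features most correlated with Gzmb, Prf1 and Gzma. Some of the list genes so chosen, all with an unadjusted p above 0.05, are not named in the text, and others, such as Lamp1, were named after their values were seen. Many genes of the lists enter only the counts, sums and medians.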

Additional observations from a re-analysis of the deposited data

Results flagged for a closer look

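Over 22 measures in each group of 5 tumors, 44 groups of values in all, 4 values lay far from the rest of their group, the distance to the next tumor exceeding 0.71 of the group's range, and chance alone would give about 2.2. All 4 belonged to responder 5, in log2(CPM + 1). It had 4.03 for Gzmd against 6.17 to 6.96 in the other responders, 2.91 for Gzme against 4.83 to 5.55, 4.19 for Gzmg against 6.43 to 7.18, and 3.66 for Prf1 against 5.44 to 6.08. The genes vary together and Gzmd, Gzme and Gzmg share reads, so these are not 4 separate results. Responder 5 has a tumor number in the low series that holds all non-responders, and the higher numbers, 9 to 12, are all responders. Whether the order of numbers plays a part was not tested.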

How the results depend on the processing

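The 9 fold changes kept their direction in all 162 values over 18 alternative settings. An adjusted p was had for 153 of them and fell under 0.05 in 2, Gzmb and Gzmc without responder 5, while it ranged up to 0.879. Leaving out each tumor in turn gave a median member fold change of 1.30 to 1.86, summed fold changes of 1.29 to 1.95 (Gzmd to Gzmg) and 1.30 to 1.90 (Gzmc to Gzmg), 0 to 9 features and 0 to 2 members called, 839 to 2140 features with an unadjusted p under 0.05 (1295 with all tumors), and 18 (without responder 11) to 66 (without responder 5) genes of the lists with such a p, against 39. Such genes of the lists numbered 57 without non-responder 1, 25 without non-responder 2 and 23 without non-responder 7. Members with a permutation p under 0.05 numbered 0 to 9, against 3 with all tumors: 7 without non-responder 1 (3.98% of all features), 9 without responder 5 (5.42%), 1 without non-responder 3 (3.6%), 2 without non-responder 6 (2.45%), and 0 without non-responders 2 or 7 or responders 9, 10, 11 or 12 (1.83% to 2.52%). The smallest p the test allows is 0.00794 with 9 tumors as with 10. DESeq2 called 4 of the 1400 features to which it gave an adjusted p and gave none to the members, and limma left 8 members with an unadjusted p under 0.05. Relative to NK markers the difference was 0.940 to 1.61 for Gzma, 0.605 to 0.985 for Prf1 and 0.729 to 1.10 for Gzmb, and relative to T cell markers 1.19 to 1.85 for Gzma, 0.824 to 1.23 for Prf1 and 0.981 to 1.34 for Gzmb. By unadjusted permutation p, the threshold was lost for Gzma against T cell markers with 7 of the 10 tumors left out in turn. It was lost for Prf1 against NK markers with 8 of them. By the same p it was gained for Gzma against NK markers without responder 5 or non-responder 6. The adjusted p of these comparisons was computed with all tumors only, so no adjusted call is shown to hold with a tumor left out. Of the 12 correlations 10 kept an adjusted p under 0.05 without the 2 farthest tumors and 12 within groups. No paired analysis was possible because tumor numbers are unique across the groups. Depth limits Gzmk, with 5 to 77 counts, most.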

Other observations

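Markers of the remaining cell types gave these values, with no adjusted p under 0.05 by edgeR. Of all features, 4.21% had an unadjusted p under 0.05 with the higher mean in responders and 4% with the lower. Without responder 5 these shares were 6.85% and 6.79%. Of the neutrophil markers 4 of 5 passed the filter, at a median log2 fold change of 0.55, and their sum was 20.1 CPM in responder 5, 26.8 to 50.1 CPM in the other responders and 14.6 to 31.2 CPM in non-responders, with Csf3r the most abundant (0.61, unadjusted p = 0.0214), followed in p by S100a9 (0.85, unadjusted p = 0.0501). With responder 5 left out, 3 rather than 1 of them had an unadjusted p under 0.05, at a median of 0.70. Cd4 was the CD4 T cell marker past the filter, at 0.61, and at 0.82 with an unadjusted p of 0.00429 without responder 5. The regulatory T cell markers had a median of 0.23 (3 of 4 past the filter). Foxp3 among them had 0.28, and 0.40 with an unadjusted p of 0.0164 without responder 5, the only one under 0.05. The plasmacytoid dendritic cell markers had a median of 0.12 (4 of 5), with Bst2, which other cells also express, at 0.21 (unadjusted p = 0.034) and Tcf4 at -0.17, and without responder 5 each of these 2 had an unadjusted p under 0.05. The B cell markers had a median of -0.08 (2 of 4, with a sum of 1.04 to 1.96 CPM), Cd79a at -0.53 and Cd79b at 0.38, and 0 of them had an unadjusted p under 0.05 with or without responder 5. For γδ T cells Sox13 was the marker found by name, at -0.01.

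Markers of stroma and neighboring tissue went both ways. Of the 7 fibroblast genes 2, Col1a1 (-0.28) and Col3a1 (-0.20), and of the 3 endothelial genes 2, Cdh5 (-0.39) and Kdr (-0.19), had an unadjusted p under 0.05 with the lower mean in responders, where 4% of all features did, with list medians of -0.20 and -0.19. Thy1 (0.34, 58.5 against 46.3 CPM), Vim (0.06, 4860 against 4662 CPM) and Pecam1 (0.09, 72.6 against 68.1 CPM) had the higher mean in responders. Without responder 5, 4 fibroblast and 2 endothelial genes had such a p with the lower mean in responders (6.79% of all features), and Thy1 (0.47) and Pecam1 (0.15) had one with the higher mean. Of the 4 skeletal muscle genes 2, Ckm (-0.75) and Myh4 (-0.86), had the lower mean in responders at such a p, at a median of -0.48, and their sum was 51.3 to 157 CPM in responders and 77.5 to 153.5 CPM in non-responders. Adipocyte genes had a median of -0.40 and a sum of at most 6.41 CPM. Of the keratinocyte genes Krt10 passed the filter, at 0.01, and Krt1 was at 0 in all tumors. Without responder 5 Ckm and Myh4 again had an unadjusted p under 0.05, and 0 adipocyte or keratinocyte genes did. Their part in the granzyme levels was not tested.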
